A study of Mus musculus with 10 samples.

Results

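A set of 10 genes of secreted proteins that act around the cell was examined in heart muscle cells after deletion of Actn2, the gene of the sarcomere protein alpha-actinin-2: the matricellular genes Thbs1, Thbs2, Thbs4, Spp1, Sparc, Tnc and Postn, and the metalloprotease inhibitor genes Timp1, Timp3 and Timp4. They were taken by symbol from the deposited count table, where all 10 were found among 23337 genes. The study compared cardiomyocytes of 5 mice with 2 floxed alleles of Actn2 (Actn2-FF, the knockout group) with those of 5 mice with 1 floxed and 1 normal allele (Actn2-F+, the heterozygote group, which served as controls). Every animal of either group received AAV9-cTNT-Cre at 360000000 vg/g on postnatal day 1, so the controls also carried the virus and a floxed allele. In this virus the cardiac troponin T promoter drives the recombinase Cre, which cuts out DNA between floxed sites, so the deletion is meant for cardiomyocytes and other heart cells keep their alleles. Cells were released on postnatal day 14 by collagenase perfusion of the heart and sorted by fluorescence, and their poly(A) RNA was sequenced. Nothing in the labels gives the sex of the animals. Reads of the Y-linked gene Ddx3y, given below, show that each group held both sexes.

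Matricellular proteins are secreted into the extracellular matrix but mostly do not build its fibres. They bind collagens, growth factors and cell-surface receptors such as integrins and syndecans, and in the heart they are known for rising after injury or overload, largely in fibroblasts and other stromal cells. Tissue inhibitors of metalloproteases (TIMPs) bind and block the matrix metalloproteases and some of the related ADAM and ADAMTS enzymes that cut matrix and shed surface proteins.

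The 3 members with the most RNA per length in either genotype were Sparc, Timp3 and Postn, and their promoters are shown for that reason. RefSeq held a promoter for 9 of the 10 genes, taken from 250 bases before to 50 bases after the start of transcription in build GRCm38.p6. Sequences read 5′ to 3′ on the strand of the gene, and capitals mark matches to the motifs searched on both strands: the TATA box (TATAAA), GC box (GGGCGG), AP-1 site (TGANTCA), TEAD site (GGAATG), GGA repeat (GGAGGA) and the CArG box of SRF.
Sparc, chr11:55420031-55420330, minus strand: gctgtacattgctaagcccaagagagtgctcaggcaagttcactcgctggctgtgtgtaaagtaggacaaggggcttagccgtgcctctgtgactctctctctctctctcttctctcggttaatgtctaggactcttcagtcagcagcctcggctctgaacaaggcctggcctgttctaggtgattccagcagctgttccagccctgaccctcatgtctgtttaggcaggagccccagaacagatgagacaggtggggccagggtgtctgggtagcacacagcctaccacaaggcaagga
Timp3, chr10:86300162-86300461, plus strand: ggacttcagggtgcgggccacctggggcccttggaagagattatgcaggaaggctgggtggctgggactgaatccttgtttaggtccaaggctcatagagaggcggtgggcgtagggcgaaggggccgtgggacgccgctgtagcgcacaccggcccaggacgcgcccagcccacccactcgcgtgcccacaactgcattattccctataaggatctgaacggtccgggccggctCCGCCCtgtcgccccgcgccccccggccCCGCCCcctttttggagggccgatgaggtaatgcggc
Postn, chr3:54360857-54361156, plus strand: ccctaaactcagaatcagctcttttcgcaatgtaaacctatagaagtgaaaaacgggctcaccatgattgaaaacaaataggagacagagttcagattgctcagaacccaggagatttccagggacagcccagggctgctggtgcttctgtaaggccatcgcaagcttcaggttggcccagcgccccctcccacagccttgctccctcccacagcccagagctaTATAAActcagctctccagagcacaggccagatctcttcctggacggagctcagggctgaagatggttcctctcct
No motif matched in the Sparc window. The Timp3 window had 2 GC boxes, one beginning 15 bases before the start and the other 13 bases after it. The Postn window had a TATA box 26 bases before the start, and a second start listed for the gene had no match. Among 32851 RefSeq promoters of this length, 35.7% held a GC box, 13.6% a TATA box, 34.5% a GGA repeat, 14.7% a TEAD site, 7.81% an AP-1 site and 1.63% a CArG box. These matches are descriptions of the letters, and no binding was measured.

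Libraries held 8086656 to 25237696 counts, and levels are in CPM, counts scaled to a common library total, in which 1 count was worth 0.042 CPM in the deepest library and 0.128 CPM in the shallowest. Actn2 checked the labels: it ran from 2677 to 3474 CPM in the 5 heterozygotes and from 1145 to 1286 CPM in the 5 knockouts (log2 fold change -1.39, SE 0.0910, edgeR adjusted p 3.48e-07). The 9 cardiomyocyte markers summed to 102100 to 124900 CPM in the heterozygotes and 96560 to 121600 CPM in the knockouts. RNA of other cells was also present. Fibroblast markers summed to 306 to 501 CPM and 280.5 to 603 CPM in heterozygotes and knockouts, and endothelial markers to 520.2 to 824 CPM and 339 to 600 CPM. In such bulk RNA, fewer cells of a type and less RNA per cell cannot be told apart. Ddx3y, a gene of chromosome Y, ran from 0 to 127 CPM in the heterozygotes and from 0 to 108 CPM in the knockouts. Males and females were therefore mixed in each group.

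Sparc was by far the most abundant of the 10. On a scale that also divides by length (RPKM, CPM per kilobase of exon), its level was 269.7 ± 33.5 in the heterozygotes and 367 ± 30.9 in the knockouts (SD, n = 5). That placed it at rank 242 and rank 173 among 11870 tested genes. Timp3 followed at 19.03 ± 7.30 and 29.4 ± 8.89 RPKM, ahead of Postn at 15.5 ± 5.52 and 12.6 ± 3.14 RPKM. Timp1, Timp4 and Thbs4 lay between 3.83 and 9.71 RPKM in group means, Thbs1 and Thbs2 between 1.39 and 2.34 RPKM, and Tnc at 0.252 RPKM in the heterozygotes and 0.328 RPKM in the knockouts. Spp1 was last in both groups. In the heterozygotes the ranges of neighbours in this order overlapped from Timp3 down to Thbs4 and again between Thbs1 and Thbs2. Sparc stood apart from Timp3, Thbs4 from Thbs1, Thbs2 from Tnc and Tnc from Spp1. In the knockouts the order of Thbs4 and Timp4 was exchanged, with overlapping ranges.

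**Figure D1:**
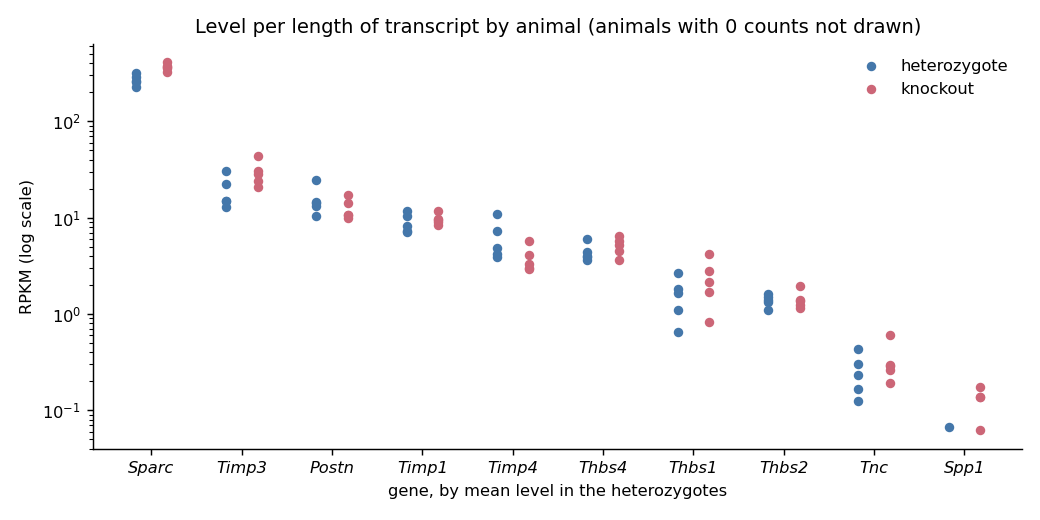
Level per length (RPKM, log axis) of the 10 genes, 1 point per animal, heterozygotes in blue and knockouts in red, ordered by the heterozygote mean. Animals with 0 counts are not drawn. Sparc lies at 226.5 to 410.4 RPKM, above the Timp3 maximum of 43.8 RPKM, while Tnc and Spp1 lie below 1 RPKM.

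The comparison of knockout with heterozygote asked how these genes differ after deletion of the second Actn2 allele. Of the 10 members, 9 passed the filter on low counts and 1 of these, Sparc, was called higher by the quasi-likelihood test of edgeR (adjusted p under 0.05). Over all 11870 tested genes 18.9% were called, 10.2% higher and 8.64% lower, against 11.1% of the tested members. An unadjusted p below 0.05 was reached by 3 of the 9 (Sparc, Timp3 and Timp4) and by 32.4% of all tested genes. The median log2 fold change was 0.23 over the 9 members and 0.0023 over all tested genes, with 7 of the 9 above 0. Only Sparc had groups that did not overlap, with the knockouts higher. Over all tested genes 14.7% had none, 8.41% with the knockouts higher and 6.32% with them lower.

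**Figure D2:**
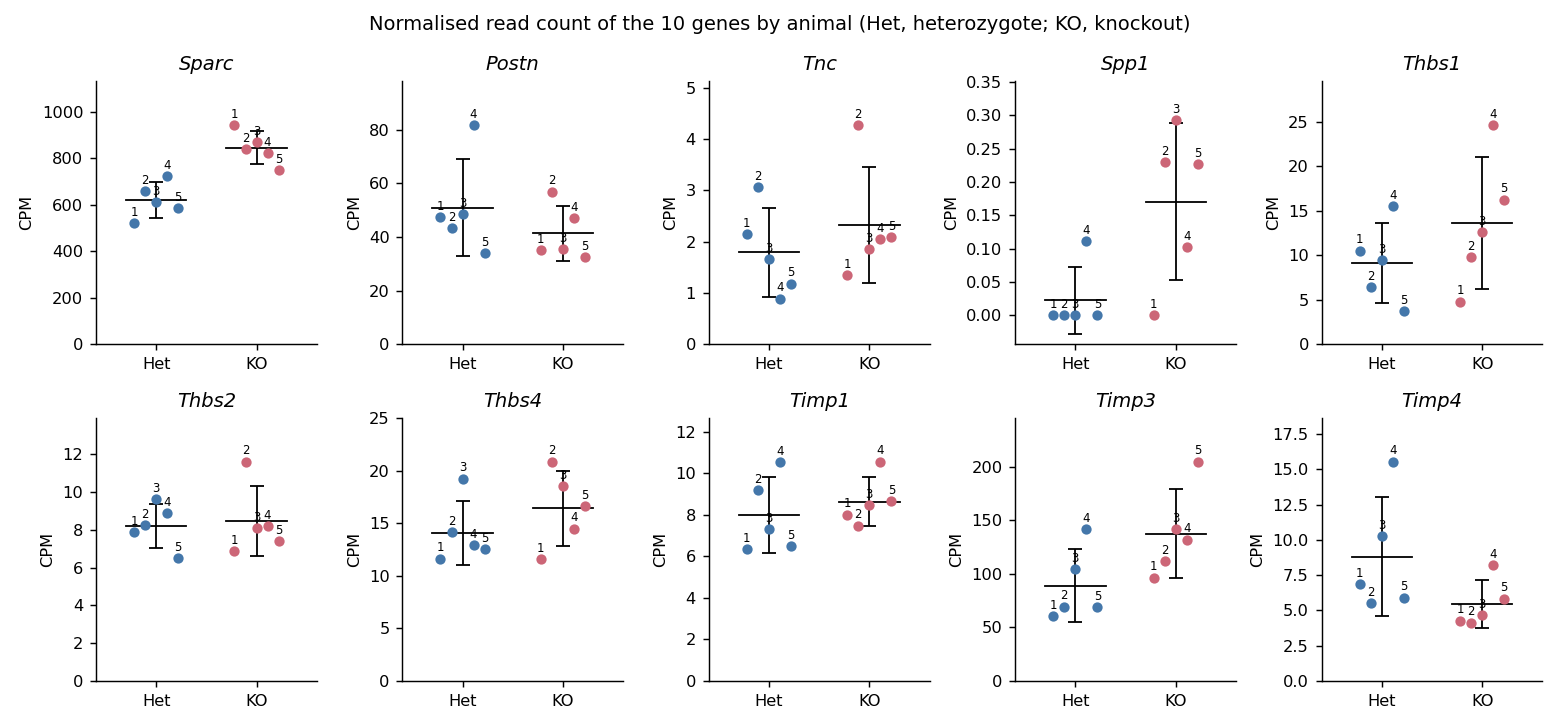
Normalised read count (CPM, linear axes) of each gene by animal, with the replicate number beside each point and the group mean ± SD (n = 5) in black. The knockouts lie above all heterozygotes for Sparc, and the groups overlap for the other 9 genes.

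Sparc encodes osteonectin, a collagen-binding glycoprotein that takes part in the assembly of collagen fibres. It covers 55394501 to 55420080 of chromosome 11 (mm10, minus strand) in 10 exon intervals. Sparc was at 521, 660.0, 610.1, 725 and 585 CPM in heterozygotes 1 to 5, and 943, 840.3, 869.7, 823 and 748 CPM in knockouts 1 to 5. The lowest knockout lay above the highest heterozygote, by 748 to 725 CPM. The mean rose from 620.1 ± 77.1 to 845 ± 71.1 CPM (SD, n = 5), a 1.36-fold difference with a 95% interval of 1.17 to 1.58 (log2 fold change 0.45, SE 0.100, edgeR adjusted p 0.00651). These counts are the deepest of the set, with 4761 to 13218 reads per library, and the spread was narrow, with a coefficient of variation of 12.4% in the heterozygotes and 8.42% in the knockouts. Cells that make much Sparc in the heart include fibroblasts and endothelial cells, and markers of both were measured. None of the 9 tested fibroblast markers (10 listed) was called. Of the 10 endothelial markers 2 were called lower and none higher. All 10 had log2 fold changes below 0, from -0.76 (Cldn5) to -0.38 (Kdr). With the mean of the fibroblast markers as a covariate the log2 fold change of Sparc was 0.47 (edgeR adjusted p 0.0137). It was 0.60 with that of the endothelial markers (edgeR adjusted p 0.0124). The summed endothelial markers had a median of 611 CPM in the heterozygotes and 445.8 CPM in the knockouts, so this covariate partly follows genotype. Whether cell make-up had a part in the rise of Sparc was not tested. The call held in all 21 other settings, with adjusted p of 5.4e-04 to 0.0209.

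Genes with the most similar pattern to Sparc across the 10 animals were sought among 8368 genes of at least 10 CPM, by the root mean square difference of mean-centred log2 CPM. They were Pdlim1 at 0.0874, Gusb at 0.0968 and Hexa at 0.106, against a spread of 0.264 of Sparc itself. Pdlim1, which encodes a PDZ and LIM domain protein of the actin cytoskeleton, went from 105.5 to 149 CPM (log2 fold change 0.50, edgeR adjusted p 0.0036). The lysosomal enzyme genes Hexa (0.44, adjusted p 0.00523) and Gusb (0.36, adjusted p 0.0634) went from 46.7 to 63.3 CPM and from 22.8 to 29.1 CPM. The search covered both genotypes, so a difference near that of Sparc was part of the choice and is no separate result.

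None of the other tested matricellular members was called, and Spp1 was not tested. Postn encodes periostin, a protein of activated fibroblasts and of the developing valves (chromosome 3, 54361107 to 54391041, plus strand). It was at 47.3, 43.2, 48.4, 81.8 and 33.9 CPM in heterozygotes 1 to 5 and at 35.1, 56.9, 35.4, 47.1 and 32.4 CPM in knockouts 1 to 5. Heterozygote 4 was the highest of the 10 animals, and the other 9 overlapped. The ratio of knockout to heterozygote was 0.813 with an interval of 0.593 to 1.12 (log2 fold change -0.30, SE 0.213, edgeR adjusted p 0.364), and without heterozygote 4 the log2 fold change was -0.06. It was 0.30 with the endothelial covariate and -0.01 with the fibroblast covariate.

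Tnc encodes tenascin-C, a large glycoprotein of wounds and developing tissue (chromosome 4, 63959785 to 64047015, minus strand). With 8 to 56 counts per library it stood at 2.14, 3.07, 1.67, 0.888 and 1.18 CPM in heterozygotes 1 to 5 and at 1.35, 4.28, 1.85, 2.05 and 2.09 CPM in knockouts 1 to 5. Knockout 2 was the highest, and the groups overlapped over most of their range. The fold difference of 1.31 (log2 fold change 0.39, and 0.04 without knockout 2) had an interval of 0.749 to 2.28 (edgeR adjusted p 0.522), so neither a modest fall nor a 2.28-fold rise could be told apart from no change at this depth.

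Spp1 encodes osteopontin, a ligand of integrins and CD44 that macrophages make in abundance in injured hearts (chromosome 5, 104435111 to 104441053, plus strand). It did not pass the filter. Heterozygotes 1 to 5 had 0, 0, 0, 1 and 0 reads and knockouts 1 to 5 had 0, 3, 3, 1 and 4 reads, which makes 1 read in 61088550 counts and 11 reads in 58623496 counts. A count of 0 allows up to 0.126 to 0.384 CPM in those heterozygotes and 0.312 CPM in knockout 1, counting error only. Fitted without the filter, Spp1 had an adjusted p of 0.132 in edgeR, and no fold change is given at such counts.

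Thrombospondins are calcium-binding glycoproteins that assemble into trimers or pentamers. Thbs1 and Thbs2 are the trimeric type that binds CD36 and CD47 and restrains vessel growth, and Thbs1 can also activate latent TGF-beta. Thbs1 (chromosome 2, 118111922 to 118127133, plus strand) was at 10.5, 6.39, 9.48, 15.5 and 3.74 CPM in heterozygotes 1 to 5 and at 4.79, 9.78, 12.6, 24.6 and 16.2 CPM in knockouts 1 to 5. Knockouts 4 and 5 exceeded all heterozygotes, and knockout 1 lay below 4 of them. The means were 9.13 ± 4.46 and 13.6 ± 7.45 CPM (SD, n = 5), and the coefficients of variation of 48.9% and 54.75% were among the widest of the tested members. The 1.49-fold difference had an interval of 0.835 to 2.65 and was not called (log2 fold change 0.57, SE 0.389, edgeR adjusted p 0.339). The log2 fold change was 0.26 without knockout 4 and 1.16 with the endothelial covariate, and neither was called (edgeR adjusted p 0.694 and 0.159).

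Thbs2 (chromosome 17, 14665500 to 14694262, minus strand) was the member with the smallest difference. It stood at 7.90, 8.23, 9.61, 8.88 and 6.49 CPM in heterozygotes 1 to 5 and at 6.87, 11.6, 8.10, 8.21 and 7.41 CPM in knockouts 1 to 5. All knockouts but the second fell inside the range of the heterozygotes. The fold difference was 1.03 with an interval of 0.793 to 1.34 (edgeR adjusted p 0.895), and the sign turned without heterozygote 5 or without knockout 2, to -0.03 and -0.10 on the log2 scale.

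Thbs4 is of the pentameric type, is made by cardiomyocytes as well as stromal cells, and is described as binding Atf6, a sensor of stress in the endoplasmic reticulum (chromosome 13, 92751586 to 92794818, minus strand). It was at 11.6, 14.1, 19.2, 12.9 and 12.5 CPM in heterozygotes 1 to 5 and at 11.6, 20.9, 18.5, 14.5 and 16.6 CPM in knockouts 1 to 5. Heterozygote 3 lay above 4 of the knockouts. The 1.18-fold difference (interval 0.903 to 1.53) was not called (log2 fold change 0.23, SE 0.178, edgeR adjusted p 0.399).

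Thbs4 made up 55.7% ± 6.81 of the summed length-normalised level of the 5 thrombospondin genes in the heterozygotes and 55.8% ± 8.12 in the knockouts (SD, n = 5). Thbs1 made up 19.5% ± 8.46 and 24.2% ± 10.7, and Thbs2 17.7% ± 1.04 and 15.7% ± 3.47. The remainder was Thbs3 and Comp, each below the filter, with at most 16 and 23 counts in any library. The make-up of the family was thus led by Thbs4 in both genotypes.

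**Figure D3:**
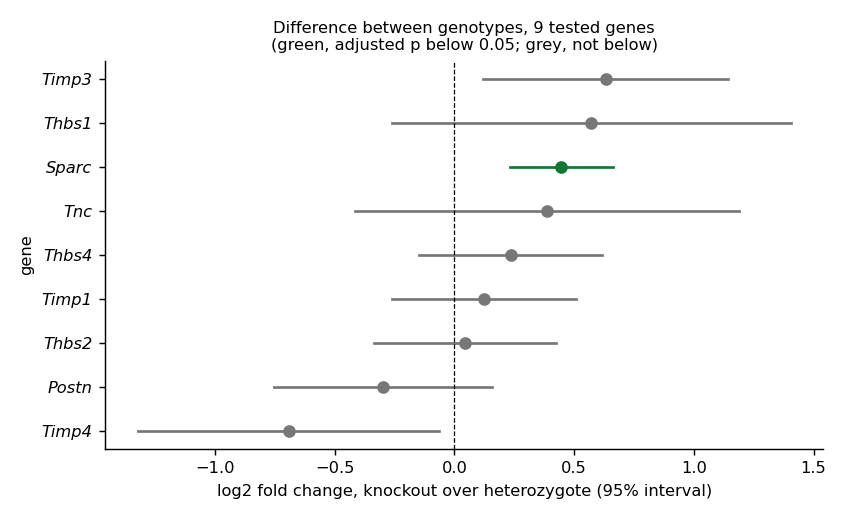
Log2 fold change of knockout over heterozygote for the 9 tested members, with the 95% interval of edgeR's fit (n = 5 animals per group, not adjusted for multiple genes). Sparc, in green, is the member with an adjusted p below 0.05, and the intervals of Timp3 (0.12 to 1.14) and Timp4 (-1.32 to -0.06) also leave out 0.

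Of the TIMP genes, Timp3 and Timp4 had differences of opposite sign that did not pass the adjusted threshold. Timp3 encodes the inhibitor that stays bound to the matrix and also blocks ADAM17 and several ADAMTS enzymes (chromosome 10, 86300412 to 86349505, plus strand). It was at 60.3, 69.4, 104, 142 and 69.2 CPM in heterozygotes 1 to 5 and at 96.5, 112, 142, 132 and 205 CPM in knockouts 1 to 5. Heterozygotes 3 and 4 reached the range of the knockouts, and the other 3 heterozygotes lay below all of them. The means were 89.1 ± 34.2 and 138 ± 41.6 CPM (SD, n = 5), a 1.55-fold difference with an interval of 1.09 to 2.21 (log2 fold change 0.63, SE 0.239, edgeR p 0.0189, adjusted p 0.0805). With the endothelial covariate its log2 fold change was 0.88 (edgeR adjusted p 0.15). Without heterozygote 4 it was 0.87 and the gene was called (edgeR adjusted p 0.0114), and without knockout 5, the highest animal, it was 0.44 (adjusted p 0.21). It was also called with DESeq2 (adjusted p 0.037) and with limma's voom (0.0328), in a range of 0.0114 to 0.21 over all settings.

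Timp4 encodes an inhibitor that is known for its high level in the heart (chromosome 6, 115245616 to 115251849, minus strand). It was at 6.85, 5.53, 10.3, 15.5 and 5.90 CPM in heterozygotes 1 to 5 and at 4.27, 4.12, 4.68, 8.21 and 5.83 CPM in knockouts 1 to 5. Heterozygotes 3 and 4 were above all knockouts, and the remaining heterozygotes lay within the range of the knockouts. The ratio was 0.619 with an interval of 0.400 to 0.957 (log2 fold change -0.69, SE 0.294, edgeR p 0.0334, adjusted p 0.119). The log2 fold change was -0.39 without heterozygote 4, and -0.01 (adjusted p 0.986) with the endothelial covariate. Over all settings the adjusted p ran from 0.0462 to 0.986.

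Timp1, the inhibitor most often induced by inflammation and growth factors, lies on chromosome X at 20870166 to 20874737, plus strand. It was at 6.34, 9.21, 7.30, 10.5 and 6.49 CPM in heterozygotes 1 to 5 and at 8.02, 7.49, 8.49, 10.6 and 8.66 CPM in knockouts 1 to 5. The 2 ranges almost coincided at their upper ends, and the fold difference of 1.09 (interval 0.834 to 1.42) was not called (edgeR adjusted p 0.689). All 3 TIMP members lie within synapsin genes, on the opposite strand: Timp1 in Syn1, Timp3 in Syn3 and Timp4 in Syn2. They share no exon bases with them, and the synapsin genes had at most 47 counts in any library.

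The fourth gene of the family, Timp2, did not pass the test (124 ± 9.37 and 126 ± 10.6 CPM, log2 fold change 0.02, edgeR adjusted p 0.915). Per length, Timp2 made up 51.1% ± 9.10 of the summed level of the 4 TIMP genes in the heterozygotes and 45.2% ± 4.15 in the knockouts (SD, n = 5). Timp3 made up 27.1% ± 6.16 and 37.2% ± 5.65, Timp1 13.1% ± 2.34 and 12.6% ± 1.66, and Timp4 8.77% ± 2.76 and 4.90% ± 1.16. Shares of Timp3 ran from 21.2 to 35.5% and from 32.2 to 45.8%, and those of Timp4 from 6.35 to 12.8% and from 4.17 to 6.95%, so that both overlapped between the groups. No test was made of these shares. The summed level ran from 60.9 to 85.5 RPKM in the heterozygotes and from 64.1 to 95.6 RPKM in the knockouts.

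**Figure D4:**
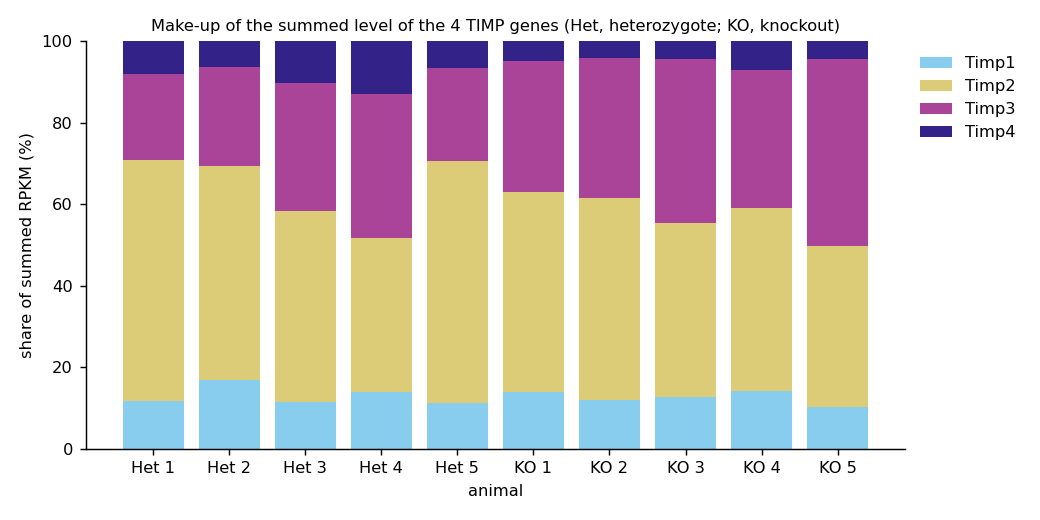
Share of each TIMP gene in the summed RPKM of Timp1, Timp2, Timp3 and Timp4, 1 bar per animal, heterozygotes 1 to 5 on the left and knockouts 1 to 5 on the right. Timp2 is the largest share in every animal except knockout 5, where Timp3 has 45.8%.

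The animals differed more within a genotype for some members than the genotypes did from each other. Heterozygote 1, the deepest library (25237696 counts), was the lowest of its group in 4 of the 9 tested members (Thbs4, Sparc, Timp1 and Timp3). Heterozygote 4 was the highest of its group in 6 of the 9 (Thbs1, Sparc, Postn, Timp1, Timp3 and Timp4) and the lowest in Tnc. Heterozygote 4 also had the highest summed endothelial markers of all animals (824 CPM, against 520.2 to 691 CPM in the other heterozygotes) and the highest mesothelial markers (19.9 CPM, against 3.93 to 11.02 CPM), whose part in these levels was not tested. Among the knockouts, knockout 2 was highest in 4 members (Thbs2, Thbs4, Tnc and Postn). It had the highest fibroblast markers (603 CPM, against 280.5 to 419 CPM in the other knockouts) and mural markers (309.7 CPM, against 202.3 to 302.8 CPM). Knockout 1 was lowest in 5 members (Thbs1, Thbs2, Thbs4, Tnc and Timp3) and highest in Sparc, and had the highest cardiomyocyte markers of its group (121600 CPM).

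Other genes of the pathway were read from the same fit, in 5 lists. Of 27 further matricellular and matrix-associated genes, 20 were tested and 6 (30%, against 18.9% of all tested genes) were called, 3 higher and 3 lower, with a median log2 fold change of -0.30. Ctgf, which encodes connective tissue growth factor of the CCN family, rose to 409 ± 152 CPM from 138 ± 47.2 CPM (SD, n = 5; log2 fold change 1.56, edgeR adjusted p 8.3e-04). Wisp1, another CCN gene, rose from 15.9 ± 3.99 to 32.6 ± 2.35 CPM (1.03, adjusted p 2.8e-04), and the groups did not overlap for either. Fstl1, a secreted follistatin-like glycoprotein with a SPARC-type domain, rose by 0.68 on the log2 scale (edgeR adjusted p 0.0172). The genes that fell were Smoc2, of the SPARC family (-1.01, edgeR adjusted p 0.00802), Ogn, a small proteoglycan (-0.66, 0.011), and Fbln2, a fibulin (-0.55, 0.0201). With the endothelial covariate the calls of Fstl1, Smoc2, Ogn and Fbln2 were lost, and those of Ctgf and Wisp1 were not. For the calls lost, edgeR adjusted p was 0.0649, 0.231, 0.0829 and 0.402 in that order, the highest of each over all settings. The call of Fbln2 was lost in 5 of the 21 other settings. Over all tested genes 1013 were called with this covariate, against 2241 without it.

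Of 21 tested receptors of matricellular proteins (25 listed), 9 were called (42.9%), 8 higher and 1 lower, with a median of 0.12. The syndecan Sdc2, a heparan sulfate proteoglycan, rose to 163 ± 20.7 CPM from 48.6 ± 6.71 CPM (SD, n = 5; log2 fold change 1.75, edgeR adjusted p 4.2e-07), and Sdc3 by 0.85 (adjusted p 0.00154). Cd44, a receptor of hyaluronan and osteopontin, rose from 17.9 ± 5.32 to 52.2 ± 10.9 CPM (1.55, adjusted p 9.0e-05). The integrin chains Itga9, a partner for tenascin-C and osteopontin, and Itga5, a partner for fibronectin, rose by 1.15 and 0.95 (edgeR adjusted p 1.4e-04 and 2.8e-05). Cd36 and Cd47, the receptors of Thbs1, were not called (-0.24 and -0.29, edgeR adjusted p 0.15 and 0.132). Stab1, a scavenger receptor that takes up Sparc, was lower (-0.65, edgeR adjusted p 0.0241), but it shares 108 exon bases with Nt5dc2 and 8 of the 21 other settings did not call it (highest adjusted p 0.522).

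A list of 29 genes held metalloproteases of the MMP, ADAM and ADAMTS families and 1 membrane-anchored inhibitor of them, Reck (-0.14, edgeR adjusted p 0.83). Of the 15 tested, 2 were called (13.3%), both higher, with a median of -0.12. Mmp23 rose to 19.6 ± 6.09 CPM from 1.85 ± 0.584 CPM (SD, n = 5; log2 fold change 3.38, edgeR adjusted p 1.2e-06), and Adam9 from 64.3 ± 6.23 to 113 ± 17.1 CPM (0.81, adjusted p 2.3e-04). The gelatinase Mmp2 (-0.40, edgeR adjusted p 0.149) and the membrane-bound Mmp14 (-0.21, 0.463) were not called. Of 17 tested genes of TGF-beta activation and signalling (18 listed), 5 were called (29.4%) and all were higher (median 0.12). Tgfb2, a TGF-beta ligand, rose to 98.3 ± 23.4 CPM from 13.5 ± 2.58 CPM (SD, n = 5; 2.87, edgeR adjusted p 2.6e-07), and Tgfb3 rose by 0.92 (0.00273). The receptor gene Tgfbr1 and the SMAD repressor gene Skil rose by 0.71 each (edgeR adjusted p 0.01 and 0.0171). Tgfbr1 was not called with the endothelial covariate (edgeR adjusted p 0.212), nor Skil with the fibroblast covariate (0.0589). Of 19 tested genes of Atf6 and the chaperones of the endoplasmic reticulum, 1 was called (5.26%), Atf6 itself, which rose from 111 ± 16.8 to 156 ± 16.1 CPM (log2 fold change 0.49, edgeR adjusted p 0.00946, range over all settings 0.00111 to 0.214), while the median of the list was 0.13.

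**Figure D5:**
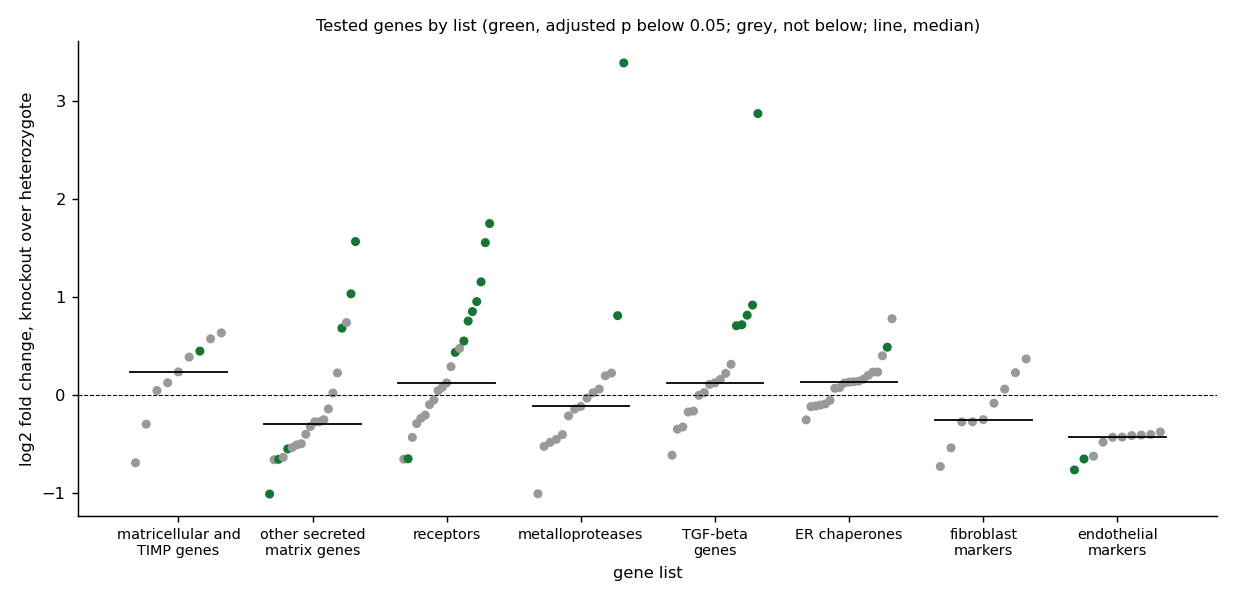
Log2 fold change of knockout over heterozygote for each tested gene, by list, with called genes in green, other genes in grey and a line at the median of each list. Among the matricellular and TIMP genes 1 of 9 is called, among their receptors 9 of 21 and among the endothelial markers 2 of 10, both below 0. Over all tested genes 18.9% are called, 8.64% of them lower in the knockouts as a share of all tested genes.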

How the data were processed

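Values are whole-number counts of reads per gene, not normalised, made per the file headers with featureCounts 1.5.1 (4 threads, no option for strand or repeated alignments) on the UCSC mm10 annotation archived in 2012. The submitters' processing notes name STAR 2.5.3a and Subread 1.5.2. At its defaults featureCounts ignores strand and drops reads that align to several places or to several genes. Of the count columns, 10 matched the samples by name, and 4 others did not and were not used. The gene lengths, in bases of merged exons, are as deposited.

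Genes were filtered with edgeR's filterByExpr (minimum count 10, minimum total 15), which left 11870, scaled with TMM and compared with the quasi-likelihood test of edgeR 4.0.16 (R 4.3.3), 5 animals against 5 without covariates. P-values were adjusted by Benjamini-Hochberg over all tested genes, with calls below 0.05. Standard errors are the log2 fold change divided by the square root of F, and log2 CPM used a prior count of 1. On simulated counts the procedure recovered 77.4% of 2-fold and 100% of 4-fold changes, and 4.37% of its calls were false. The simulation changed 194 of 11870 tested genes, while 2241 were called in these data. Its rates do not cover smaller differences or another share of changed genes. The labels do not say whether the animals shared litters or preparation days, so p-values measure the spread between these samples.

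Members and lists were chosen with earlier results of these data known. Named from each list were the called genes of at least 1 CPM with the largest changes, at most 5 in each direction (1 called gene of the TGF-beta list is not reported here), and the 3 genes most like each called member. Mmp2, Mmp14, Reck, Cd36, Cd47, Timp2, Thbs3, Comp, Ddx3y and the synapsin genes were named for their role or position, after their values were seen. Kdr was named as the end of a range. Alternatives were other scalings, other filters, DESeq2 1.42.0, voom with sample weights of limma 3.58.1, a replicate block, a covariate of endothelial, fibroblast or Y-linked genes, and leaving out each animal. Floors (3 counts) cover counting error only.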

Additional observations from a re-analysis of the deposited data

Results flagged for a closer look

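In 106 groups of 5 values, 8 had an extreme sample whose gap to its nearest neighbour was more than 0.71 of the whole range, and chance gives about 5. The library of heterozygote 1 held 25237696 counts and the second of its group 10309615 (gap 0.870). Spp1 was at -2.36 log2 CPM in heterozygote 4, the heterozygote with its single read, against -3.58 in the others (gap 1.00), which is the step from 0 to 1 read. Heterozygote 4 had 6.38 log2 CPM of Fbln2, the next 5.82 (gap 0.712), and Tgfbr1 at 5.83 log2 CPM in knockout 5 against 5.38 (gap 0.873). The share of Timp4 in the summed TIMP level was 6.95% in knockout 4 against 4.70% in the next highest knockout (gap 0.806). Summed cardiomyocyte markers were 121600 CPM in knockout 1 against 103400 CPM (gap 0.727), and mural markers 202.3 CPM in knockout 5 against 282.8 CPM (gap 0.750). Summed macrophage markers were 44.6 CPM in heterozygote 3 against 22.3 CPM (gap 0.791).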

How the results depend on the processing

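Sparc and Actn2 kept their direction and call in all 21 other settings, with log2 fold changes of 0.39 to 0.60 and -1.44 to -1.30. The count of called members was 2 of 9 with DESeq2 and with voom (2 higher). It was 3 with the replicate block (2 higher and 1 lower) and 1 to 2 without single animals. Over all genes, 2625 of 11870 were called with DESeq2, 2534 of 11870 with voom and 1699 to 2258 without single animals. The block called Timp3 (adjusted p 0.0277) and Timp4 (0.0462) besides Sparc, and 2182 genes in all against 2241. The labels do not say what a replicate number marks. Same-numbered samples 1 to 5 correlated at 0.112, -0.0124, -0.0604, 0.185 and 0.141, and 2 of 5 heterozygotes correlated best with their own number, so the animals were not treated as paired. With the endothelial covariate 1013 genes were called (515 higher, 498 lower), and the cause was not tested. Postn reversed with it (0.30), Thbs2 without single animals (-0.10 to 0.11), and the difference of the Thbs4 share, 0.0615 points, in shares of counts (-0.739). Other named genes lost their call in 33 of 524 combinations of gene and setting and none reversed. Library totals alone gave 1684 higher and 760 lower calls (68.9% higher, against 54.3%). Counts of called genes ranged from 3 to 8 in the further matricellular list, 5 to 10 among receptors, 2 to 3 among metalloproteases, 4 to 7 in the TGF-beta list and 0 to 4 among chaperones. Tnc has no value at a mean of 5 CPM. Depth limits Tnc and Spp1.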

Other observations

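Some markers of the cell type lists also differed between the genotypes. Cspg4, a proteoglycan gene listed as a mural marker, rose to 132 ± 21.3 CPM from 37.0 ± 6.39 CPM (SD, n = 5; log2 fold change 1.84, edgeR adjusted p 1.2e-06), while the other 6 mural markers were not called. Among cardiomyocyte markers, Tnni3, which encodes cardiac troponin I, was the 1 of 9 called (-0.53, edgeR adjusted p 0.00165). Of the endothelial markers, Egfl7 (-0.65, edgeR adjusted p 0.00612) and Cldn5 (-0.76, 0.0365) were lower, and the median of the 10 was -0.43. Of 6 tested macrophage markers (10 listed), Csf1r was called lower (-0.86, edgeR adjusted p 0.0216), and their sum was 16.4 to 44.6 CPM in the heterozygotes and 11.1 to 14.0 CPM in the knockouts. No mesothelial or platelet marker was called, of 3 and 1 tested. The call of Csf1r was lost in 4 of 20 other settings (highest edgeR adjusted p 0.245, with the endothelial covariate). The call of Cldn5 was lost in 9 of 21 other settings and that of Egfl7 in 1, the endothelial covariate among them for both. Cldn5 and Egfl7 are themselves part of that covariate, so their values with it are not a check of their calls.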
